A study of Mus musculus with 5 samples.

Results

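Glycolysis and the cellular response to low oxygen were followed through 10 genes in nuclei of mouse interscapular brown adipose tissue (iBAT). The genes were Hk2, Pfkp and Ldha of the glycolytic route, Pdk1 at the entry of pyruvate into mitochondria, Ugp2 of glycogen synthesis, Ak4 of nucleotide balance, Bnip3 of mitochondrial turnover, Egln3 of oxygen sensing, and the transcription factor genes Hif1a and Epas1. They were taken by symbol from the 32285 genes listed in each of the 2 deposited matrices, and all 10 were present in both. In GRCm38 they lie at chr6:82725025-82774454 (Hk2), chr13:6579768-6648777 (Pfkp), chr7:46841475-46855627 (Ldha), chr2:71873224-71903858 (Pdk1), chr11:21321138-21371201 (Ugp2), chr4:101419277-101466995 (Ak4), chr7:138890836-138909519 (Bnip3), chr12:54178981-54203860 (Egln3), chr12:73901375-73947530 (Hif1a) and chr17:86753700-86833410 (Epas1). UMIs (unique molecular identifiers, 1 per captured molecule) are given per gene and were not split by exon or intron. No member was used to assign a nucleus to a cell type.

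Brown adipocytes burn fatty acids and glucose to make heat. Glucose is trapped by hexokinase, passes through phosphofructokinase and ends as pyruvate, which either enters the mitochondria or is reduced to lactate by lactate dehydrogenase. When oxygen is short, the prolyl hydroxylases that mark HIF-1α (Hif1a) and HIF-2α (Epas1) for destruction slow down, the HIF proteins accumulate and bind short sequences in the promoters of glycolytic and survival genes. This control acts on the proteins, so the mRNA levels of Hif1a and Epas1 are no measure of HIF activity.

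The series holds 5 samples of sorted iBAT nuclei profiled with the 10x Genomics 3′ v3.1 kit, 1 library for each. A first matrix joins 3-month-old littermate controls (WT) and Ucp1-STX4KO mice, in which Cre driven by the Ucp1 promoter removes floxed Stx4, the gene of syntaxin 4, in brown adipocytes. A second matrix, called the aging matrix here, joins C57BL/6J mice of 2, 12 and 24 months. The methods name 4 male mice without saying how they were divided among the libraries. Barcodes end in a suffix that separates the libraries of a matrix, and no label ties a suffix to a genotype or an age. Libraries are therefore named by suffix, values are given per library, and no genotype or age was compared. All intervals below are 95% intervals that cover counting error only. They leave out the spread among nuclei of a library and, since no group has a second library, the spread among libraries.

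Library 1 of the WT and Ucp1-STX4KO matrix held 11201 barcodes with a median of 5998 UMIs, and library 2 held 9106 with 3284.5. The 3 aging libraries kept 7842, 10000 and 10000 nuclei, with medians of 1247, 1635 and 1719.5 UMIs. Nuclei were gated by the UMI share of 9 marker lists. Adipocyte nuclei, marked by Adipoq, Plin1, Lipe and 7 further genes, made up 92.6% of library 1 and 53.8% of library 2. In the aging matrix, whose samples carry the same label of brown adipocytes, 5.25% of nuclei were gated as adipocyte and 63.9% as endothelial. The aging libraries gave 652, 583 and 227 adipocyte nuclei. Libraries of one matrix shared between 23 and 45 barcodes.

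The stretches before the start sites show how the members differ in the short core sequence that HIF proteins bind. The 5-letter motifs ACGTG and GCGTG were searched on both strands in the 250 bases upstream of each RefSeq start in GRCm38.p6, with a palindromic CACGTG counted on each strand. Over 32817 such stretches, 38.6% held a match. All 9 members with an entry had a match in at least 1 stretch. Stretch by stretch, 13 of 15 held one, and some of those of Ak4 overlap. Ugp2 had 6 in the first of its 2 stretches and 0 in the other, Bnip3 had 5, Pfkp had 3, and Pdk1 had 1 and 0. Of all stretches, 0.417% held 6 or more, 1.01% held 5 or more and 6.58% held 3 or more. The first 4 sequences are shown because these genes moved together among adipocyte nuclei of library 1, and Pdk1 because it did not. The number of matches did not follow this grouping, since Egln3 held 1, as Pdk1 did, and Ldha, which moved less, held 5 in one of its stretches. They run 5′ to 3′ on the strand of the gene, with matches in capitals. They lie at chr13:6648772-6649021 (minus strand, Pfkp), chr11:21371268-21371517 (minus, Ugp2), chr7:138909507-138909756 (minus, Bnip3), chr12:54203875-54204124 (minus, Egln3) and chr2:71872974-71873223 (plus, Pdk1).
Pfkp: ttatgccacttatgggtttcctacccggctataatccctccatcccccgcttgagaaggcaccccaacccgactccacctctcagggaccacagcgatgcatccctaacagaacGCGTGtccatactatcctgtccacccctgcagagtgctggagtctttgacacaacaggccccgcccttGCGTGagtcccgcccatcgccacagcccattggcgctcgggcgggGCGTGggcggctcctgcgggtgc
Ugp2: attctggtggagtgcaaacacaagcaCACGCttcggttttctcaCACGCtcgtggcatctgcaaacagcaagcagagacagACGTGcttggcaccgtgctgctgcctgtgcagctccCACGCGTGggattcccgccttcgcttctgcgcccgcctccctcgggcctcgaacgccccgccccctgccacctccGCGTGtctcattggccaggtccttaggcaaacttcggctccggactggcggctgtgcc
Bnip3: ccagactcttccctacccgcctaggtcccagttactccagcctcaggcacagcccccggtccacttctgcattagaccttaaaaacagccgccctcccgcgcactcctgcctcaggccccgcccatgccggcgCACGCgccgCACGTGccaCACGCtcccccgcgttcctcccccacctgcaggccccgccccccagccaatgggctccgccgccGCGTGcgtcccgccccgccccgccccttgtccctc
Egln3: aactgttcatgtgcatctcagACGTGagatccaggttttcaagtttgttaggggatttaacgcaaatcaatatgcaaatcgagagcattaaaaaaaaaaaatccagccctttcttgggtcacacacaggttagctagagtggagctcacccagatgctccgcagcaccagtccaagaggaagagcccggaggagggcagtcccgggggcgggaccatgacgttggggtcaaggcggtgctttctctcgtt
Pdk1: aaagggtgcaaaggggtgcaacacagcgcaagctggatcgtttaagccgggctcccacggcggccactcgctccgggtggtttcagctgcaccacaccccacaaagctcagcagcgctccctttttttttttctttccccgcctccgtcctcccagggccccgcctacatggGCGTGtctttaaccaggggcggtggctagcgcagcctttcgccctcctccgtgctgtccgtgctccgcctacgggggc
Hif1a and Hk2 held 3 and 2 matches, the stretches of Ldha 5 and 1, and each of the 4 stretches of Ak4 2. Epas1 was named only. A match is a run of letters and not evidence of binding.

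Hk2, hexokinase II, had the highest ratio of adipocyte to other gated nuclei among members with 200 UMIs in library 1 and the 3 aging libraries, but not in library 2, where Bnip3 did. Levels are CPM, the UMIs of a gene over all UMIs of the nuclei of a type, times 1000000, and they compare types and libraries for 1 gene but not one gene with another. In adipocyte nuclei of the WT and Ucp1-STX4KO matrix Hk2 stood at 648 CPM (642 to 654) in library 1 and 792 (782 to 803) in library 2. In library 1 the other 4 types lay between 107 CPM in fibroblast or progenitor nuclei and 155 in macrophage nuclei. In library 2 skeletal muscle nuclei were higher than adipocyte nuclei, at 1041 CPM (994 to 1090), and T lymphocyte nuclei followed at 269. In the aging matrix adipocyte nuclei held 882, 1079 and 1133 CPM, and every other type of at least 50 nuclei held between 9.05 and 84.5. The ratio of adipocyte to all other gated nuclei was 38.0 (32.8 to 44.2), 20.3 (18.7 to 22.2) and 43.7 (38.9 to 49.1) in the 3 aging libraries, 5.29 (4.71 to 5.97) in library 1 and 1.99 (1.90 to 2.07) in library 2.

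Part of any level outside adipocytes can be free RNA of adipocytes, so the level of each type relative to adipocyte nuclei was set beside that of the 10 adipocyte markers and Ucp1. In pericyte or smooth muscle nuclei these 11 genes held between 0.120 and 0.494 of their adipocyte level in library 1, and between 0.107 and 0.411 in library 2. The highest of the 11 can lie far above their median, as in endothelial nuclei of library 1 (0.973 against 0.278). Hk2 exceeded the highest of the 11 in 0 of 4 types in library 1, in 1 of 6 in library 2 (skeletal muscle, at 1.31 times the adipocyte level) and in 0 types of the aging libraries. In the remaining types Hk2 was thus not above what adipocyte genes reached there.

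Pfkp, the platelet-type phosphofructokinase, was not particular to adipocytes. Library 1 gave 262 CPM (259 to 266) in adipocyte and 251 (212 to 295) in pericyte or smooth muscle nuclei. In library 2 pericyte or smooth muscle nuclei were higher, at 385 CPM (334 to 441) against 198 (193 to 204) in adipocyte nuclei. T lymphocyte nuclei of library 2 lay at 201 CPM and skeletal muscle nuclei at 30.2. The aging libraries held 99.3, 85.8 and 200 CPM in adipocyte nuclei and 120, 165 and 174 in pericyte or smooth muscle nuclei, so that adipocyte nuclei led only in library 3, where the intervals of both types overlap. Relative to adipocyte nuclei, Pfkp was above all 11 adipocyte genes in pericyte or smooth muscle nuclei of all 5 libraries, and in fibroblast or progenitor nuclei of all 5 as well (0.452 and 0.837 in libraries 1 and 2). The same held for T lymphocyte nuclei of library 2 (1.02), for Schwann nuclei of aging library 1 and for endothelial nuclei of aging libraries 1 (0.891) and 2 (0.507).

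Ldha, lactate dehydrogenase A, was not set apart in adipocyte nuclei of the first matrix. Its processed pseudogenes are near-identical, so its counts are uncertain. In library 1 the levels ran from 71.7 CPM in fibroblast or progenitor nuclei to 146 (144 to 149) in adipocyte nuclei, with endothelial nuclei at 125 (81.0 to 185) not separable from the latter. In library 2 adipocyte, endothelial, skeletal muscle and T lymphocyte nuclei lay between 108 and 125 CPM with overlapping intervals, above fibroblast or progenitor nuclei at 53.2 (41.8 to 66.8). In the aging matrix adipocyte nuclei held 134, 144 and 126 CPM, while endothelial nuclei held 79.0, 103 and 112, with overlapping intervals in library 3.

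Pdk1, a kinase that shuts pyruvate dehydrogenase, differed most between the 2 libraries of the first matrix. In adipocyte nuclei 3920 UMIs gave 53.9 CPM (52.2 to 55.6) in library 1, and 204 UMIs gave 7.13 (6.19 to 8.18) in library 2. In library 2 adipocyte nuclei were below endothelial nuclei at 30.5 CPM (17.8 to 48.9), skeletal muscle nuclei at 26.2 (19.2 to 34.9) and macrophage nuclei at 16.2 (10.4 to 24.1). The aging libraries gave 47.1, 24.8 and 42.5 CPM in adipocyte nuclei against 46.4, 40.3 and 63.6 in endothelial nuclei, and the ratio of endothelial to adipocyte nuclei was 0.985 (0.738 to 1.32), 1.62 (1.15 to 2.36) and 1.50 (1.02 to 2.28).

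Ugp2, which makes the UDP-glucose from which glycogen is built, differed between the libraries in the opposite direction. Adipocyte nuclei held 183 CPM (180 to 186) in library 1 and 1094 (1082 to 1106) in library 2. Skeletal muscle nuclei of library 2 held 1239 CPM (1187 to 1292), and the other types of that library between 230 and 361. In library 1 fibroblast or progenitor nuclei came next to adipocyte nuclei at 139 CPM (119 to 162). Aging adipocyte nuclei held 90.1, 144 and 182 CPM, and the ratio to other gated nuclei was 1.50, 2.37 and 3.86.

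Bnip3, a mitochondrial outer membrane protein of mitophagy, was highest in adipocyte nuclei of every library. It reached 312 CPM (308 to 316) in library 1 and 317 (310 to 323) in library 2, against at most 145 and 161 in any other type. The ratio to other gated nuclei was 3.54 (3.09 to 4.09) and 3.30 (3.03 to 3.59). In the aging libraries adipocyte nuclei held 335 CPM (309 to 364), 128 (110 to 148) and 109 (84.4 to 137), with other types between 14.7 and 49.6.

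Egln3, an oxygen-sensing prolyl hydroxylase, and Ak4, a mitochondrial adenylate kinase, gave few UMIs. Egln3 was highest in skeletal muscle nuclei of library 2, at 106 CPM (91.2 to 122), above adipocyte nuclei at 29.9 (28.0 to 32.0). In library 1 adipocyte nuclei gave 20.6 CPM (19.6 to 21.7). It was not detected in the 420 fibroblast or progenitor nuclei of library 2, where 3 UMIs would be 2.16 CPM. Ak4 stood at 5.79 CPM (5.25 to 6.37) in adipocyte nuclei of library 1, below fibroblast or progenitor nuclei at 14.0 (8.17 to 22.4) from 17 UMIs, and at 3.74 (3.07 to 4.52) in adipocyte nuclei of library 2. In aging adipocyte nuclei Egln3 rested on 22, 17 and 4 UMIs and Ak4 on 4, 6 and 1, and the types were not ordered for Ak4 at this depth.

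The 2 HIF-α genes were not highest in adipocyte nuclei of any library. Epas1 was highest in endothelial nuclei of all 5 libraries. It reached 601 CPM (498 to 719) in library 1 and 449 (395 to 508) in library 2, and 731, 557 and 827 in the aging libraries. Pericyte or smooth muscle nuclei followed, at 269 and 207 CPM and at 378, 404 and 499. Adipocyte nuclei held 167 and 131 CPM, and 194, 337 and 307 in the aging libraries. For Hif1a adipocyte nuclei gave 106 CPM (104 to 109) and 108 (104 to 112), pericyte or smooth muscle nuclei 133 and 128, and T lymphocyte nuclei of library 2 were highest at 182 (129 to 250). In the 3 aging libraries Hif1a was higher in pericyte or smooth muscle nuclei, at 143, 123 and 127 CPM, than in adipocyte nuclei, at 78.7, 70.2 and 89.7, and the ratio was 1.82 (1.51 to 2.21), 1.75 (1.36 to 2.26) and 1.42 (1.06 to 1.92). In library 2 the level relative to adipocyte nuclei exceeded all 11 adipocyte genes in 6 of 6 types for Hif1a and in 5 of 6 for Epas1.

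**Figure D1:**
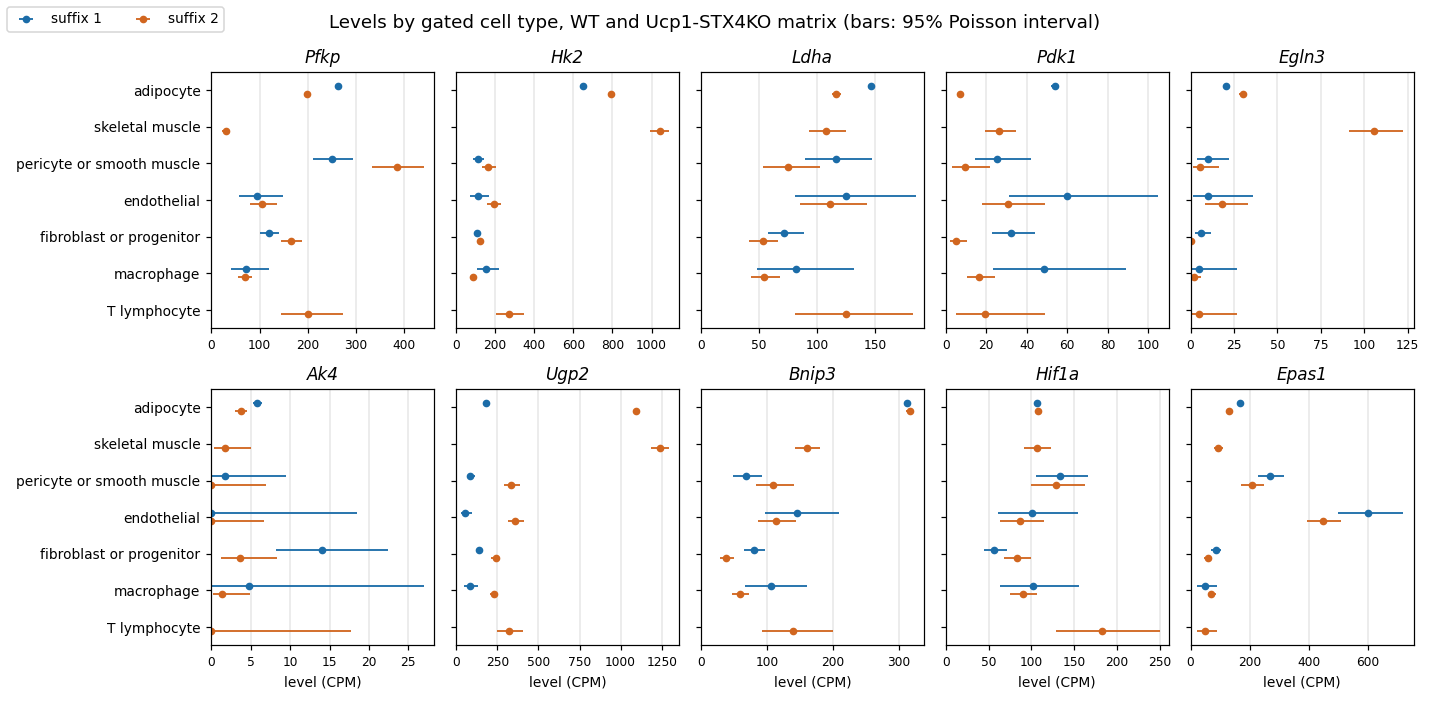
Level of each gene (x axis, CPM, a separate linear scale per gene) by gated cell type (rows) in library 1 (suffix 1, blue) and library 2 (suffix 2, orange) of the WT and Ucp1-STX4KO matrix, with 95% Poisson intervals as bars and types of at least 50 nuclei shown. Hk2 and Ugp2 in library 2 were highest in skeletal muscle and adipocyte nuclei, Bnip3 was highest in adipocyte nuclei of both libraries and Epas1 in endothelial nuclei of both.

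**Figure D2:**
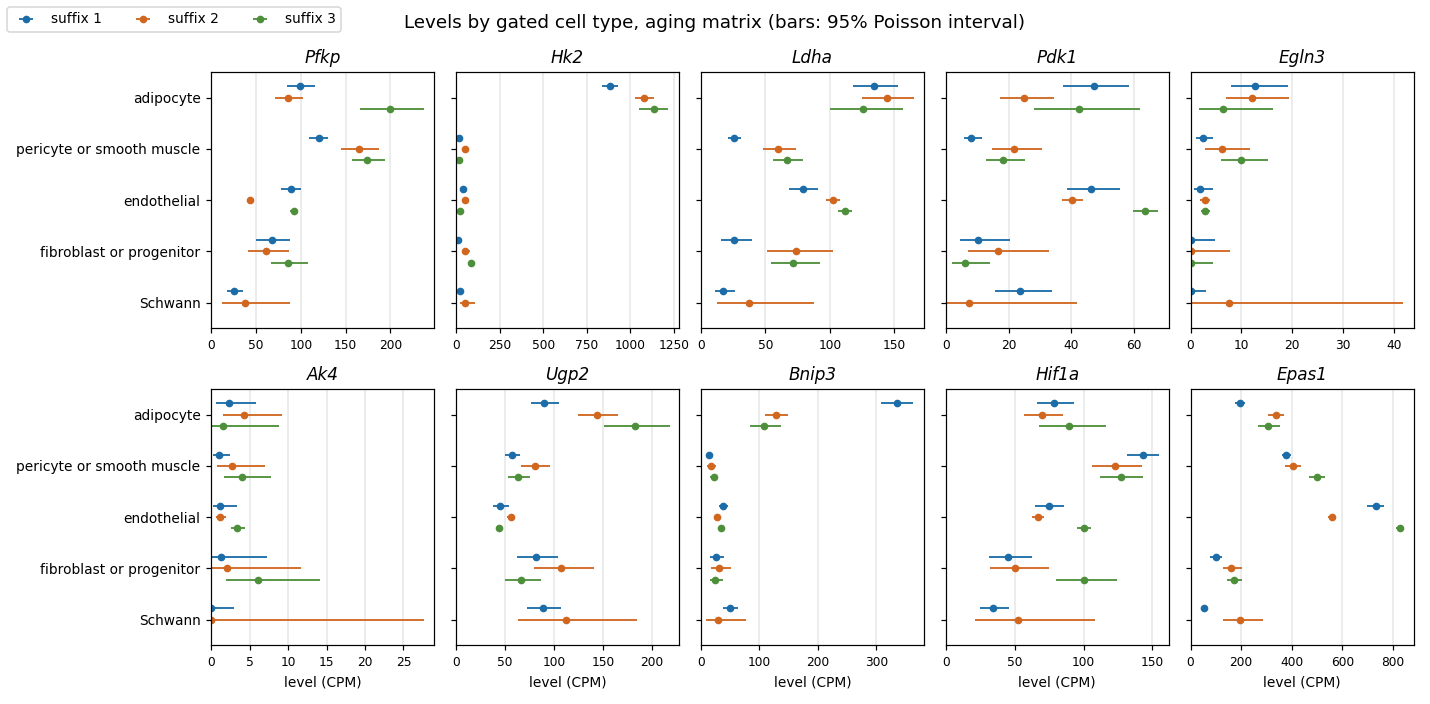
Level of each gene (x axis, CPM, a separate linear scale per gene) by gated cell type (rows) in aging libraries 1 (blue), 2 (orange) and 3 (green), with 95% Poisson intervals as bars and types of at least 50 nuclei shown. Hk2 in adipocyte nuclei lay at 882 to 1133 CPM against 84.5 or less elsewhere, and Epas1 was highest in endothelial nuclei of all 3 libraries.

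Counted together, the members were a mixed set with respect to cell type. In library 1, 3 of 10 members were at least 2-fold higher in adipocyte than in other gated nuclei (Hk2, Bnip3 and Egln3) and 0 at least 2-fold lower, where 16.6% of the 11834 genes with 200 or more UMIs were 2-fold higher and 15.9% lower. In library 2, 1 of the 9 members with 200 UMIs was 2-fold higher (Bnip3) and 1 lower (Pdk1, at 0.411), against 10.5% and 22.7% of 10098 genes. Hk2 and Ugp2 just missed the 2-fold mark there, at 1.99 and 1.98, with 342 skeletal muscle nuclei among the other types against 9 in library 1. In the aging libraries 4, 3 and 3 of the 8 members with enough UMIs were 2-fold higher, against 17.4%, 15.1% and 18.9% of genes. There 1, 0 and 1 were 2-fold lower (Epas1), against 28.5%, 21.2% and 24.6%. The median ratio of the members was 1.56 in library 1 and 1.46 in library 2, and that of all genes 1.05 and 0.916.

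Lists of related genes, written around the members, gave the wider route. Of the 10 genes for the entry of pyruvate into mitochondria, 8 were at least 2-fold higher in adipocyte nuclei of library 1, with a median of 2.68, led by Pcx (pyruvate carboxylase, 5.64) and with Pdp1 lowest at 0.231. In library 2 it was 7 of 9, with a median of 3.22. Of the other glycolytic enzymes 7 of 17 were 2-fold higher in library 1 and 4 of 17 in library 2, from Eno1 (3.83) to Pfkfb4 (0.450) and from Pfkl (6.18) to the muscle enzyme Pfkm (0.0615). Of the glycogen genes 8 of 16 and 5 of 16 were 2-fold higher, led by the glycogen synthases Gys1 (4.99) and Gys2 (4.72). Hypoxia-induced genes gave 2 of 14 and 3 of 14 higher, with medians of 0.971 and 1.09, and the first count is near the share of all genes. As a list they lay below the median of all genes in library 1 and above it in library 2. Their range ran from Vegfa, the vascular growth factor (3.63 in library 1), to the collagen enzyme Plod2 (0.0262). Of the HIF system Egln1, the main prolyl hydroxylase of HIF, was the only 1 of 5 that was 2-fold higher, at 2.60 in library 1 and 2.36 in library 2. Of the glucose and lactate transporters 2 of 4 and 1 of 3 were 2-fold higher, led by the lactate carrier Slc16a1 (2.29 and 3.12). Lipogenic genes, with 7 of 10 and 8 of 10, and brown thermogenic genes, with 4 of 8 and 5 of 8, were the lists that mark the adipocyte itself. Stress response genes gave 0 of 2 and 2 of 5.

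Between the 2 libraries of the first matrix, Ugp2 and Pdk1 were the members that differed most in adipocyte nuclei. Ugp2 was 5.99-fold (5.86 to 6.11) higher in library 2, at the 97.2th percentile of 12179 genes. Pdk1 stood at 0.132 (0.114 to 0.152) of its library 1 level, at percentile 0.805. These were the only members past 2-fold, 1 of 10 higher and 1 of 10 lower, where 8.36% of genes were 2-fold higher and 21.8% lower. Egln3 (1.45) and Hk2 (1.22) were moderately higher in library 2, Bnip3 (1.02) and Hif1a (1.01) were level, and Ldha (0.796), Epas1 (0.787), Pfkp (0.756) and Ak4 (0.646) were lower. The median of all genes was 0.772, so that Pfkp, Ldha and Epas1 lay close to it.

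The Ugp2 difference was also measured in the other types. It was 6.55 (3.58 to 13.3) in endothelial, 3.86 (2.81 to 5.38) in pericyte or smooth muscle, 2.80 (1.73 to 4.87) in macrophage and 1.72 (1.42 to 2.08) in fibroblast or progenitor nuclei. In library 2, however, Ugp2 in these 4 types stood at 0.330, 0.307, 0.211 and 0.219 of its adipocyte level, not above the highest of the 11 adipocyte genes, and the part of adipocyte RNA in these values was not tested. Pdk1 was lower in library 2 in fibroblast or progenitor nuclei (0.156, 0.0591 to 0.354) and macrophage nuclei (0.335, 0.155 to 0.786), while the intervals in endothelial (0.508, 0.229 to 1.17) and pericyte or smooth muscle nuclei (0.369, 0.105 to 1.07) include 1. Stress response genes moved with the libraries. All 5 stress response genes with enough UMIs were past 2-fold higher in library 2, where 8.36% of all genes were. Their median was 4.92, led by Atf3 from 0.784 to 75.2 CPM. Among the brown thermogenic genes Ppargc1a, a coactivator of mitochondrial biogenesis, stood at 775 CPM in library 1 and 11961 in library 2, and the ratio of Ucp1 was 0.838. The part of stress, of nuclei of other types and of genotype in the Ugp2 and Pdk1 values was not tested, and they cannot be told apart with 1 library on each side. Stx4a itself, the targeted gene, was at 0.831 in library 2 relative to library 1.

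**Figure D3:**
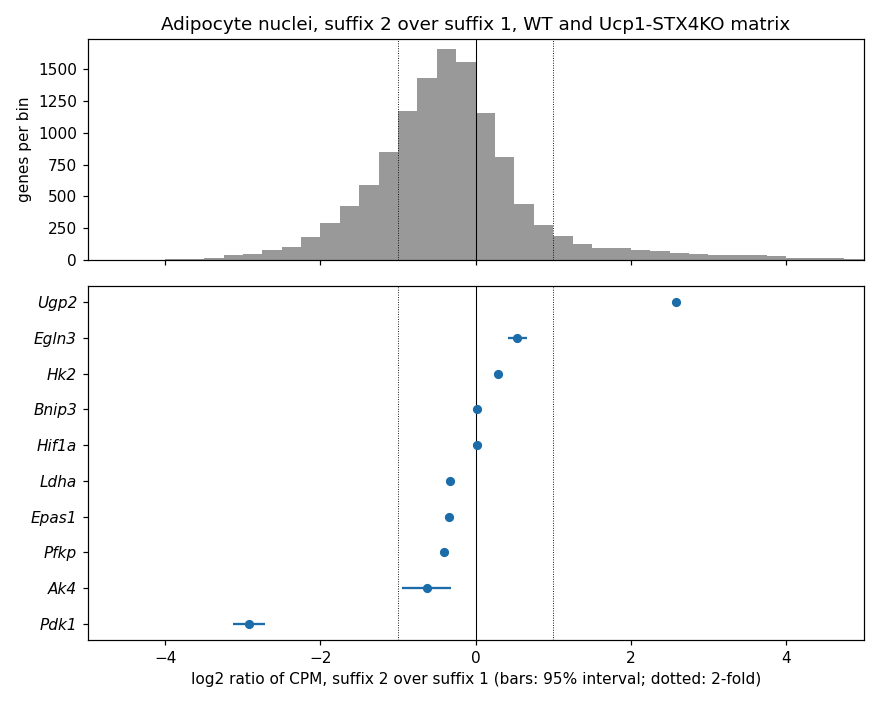
Ratio of CPM in adipocyte nuclei, library 2 over library 1 of the WT and Ucp1-STX4KO matrix, on a log2 x axis, for all 12179 genes with 200 or more UMIs (histogram, genes per bin) and for the 10 members (points with 95% intervals; dotted lines at 2-fold). Ugp2 lay far to the right at 5.99-fold, Pdk1 far to the left at 0.132, and the other 8 lay within 2-fold.

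Among the aging libraries, adipocyte nuclei differed in Bnip3 most of all. Relative to library 1 it stood at 0.383 (0.322 to 0.453) in library 2 and 0.324 (0.248 to 0.416) in library 3, where 5.03% and 4.55% of genes were 2-fold lower. None of the 10 members was 2-fold higher in library 2 than in library 1, where 5.59% of genes were. Pfkp was 2.01-fold (1.59 to 2.54) higher in library 3 than in library 1 and 2.33-fold (1.80 to 3.01) higher than in library 2, where 3.02% and 2.91% of genes were 2-fold higher. Ugp2 was 1.60-fold (1.29 to 1.98) and 2.02-fold (1.58 to 2.59) higher in libraries 2 and 3 than in library 1, and Epas1 1.74-fold (1.51 to 2.00) and 1.58-fold (1.32 to 1.89). Hif1a, Ldha and Egln3 gave intervals that include 1 in each of the 3 comparisons. Mitochondrial genes took 2.92%, 12.6% and 6.35% of the UMIs of aging libraries 1, 2 and 3, and the part of this in the values above was not tested.

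Within a single library, nuclei share 1 preparation, and the members could be followed from one adipocyte nucleus to the next. Each adipocyte nucleus of the first matrix was thinned to 2000 UMIs. Nuclei with many UMIs of an index gene, at or above the 90th percentile and at least 1, were then compared with the rest for every other gene. Library 1 gave 10376 nuclei. Library 2 gave 4194, after 702 shallower nuclei were left out.

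In library 1, nuclei rich in Pfkp were also rich in Ugp2, Egln3, Ak4 and Bnip3. The 1186 nuclei with 2 or more Pfkp UMIs held 549 CPM of Ugp2 against 130 in the other 9190, a ratio of 4.21 (3.93 to 4.51). The size of this ratio moved with the definition, to 2.36 with thinning to 1000 UMIs and 2.75 with any Pfkp UMI taken as high. Ak4 had a ratio of 4.37 (2.95 to 6.41), Egln3 of 3.09 (2.50 to 3.79) and Bnip3 of 2.22 (2.09 to 2.35). The ratio of Ak4 rests on 44 UMIs in high and 78 in other nuclei, under the limit of 200 UMIs. Ldha (1.44, 1.30 to 1.58) and Hk2 (1.38, 1.32 to 1.45) were modestly higher. Pdk1 (1.11), Hif1a (1.08) and Epas1 (1.004) gave intervals that include 1. Of the 8 partners with 200 or more UMIs, 3 reached 2-fold, where 0.412% of 8744 genes did. The members were chosen with earlier results of these data known, so this and the shares below describe them and test nothing.

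With each of Pfkp, Ugp2, Egln3, Ak4 and Bnip3 as the index, the others of this set had intervals above 1, but not all reached 2-fold. Below it were Bnip3 in Egln3-high (1.36, 1.22 to 1.52) and Ugp2-high nuclei (1.63, 1.54 to 1.71), and Egln3 in Bnip3-high nuclei (1.73, 1.37 to 2.16). Ugp2 was 2.90-fold (2.70 to 3.10) higher in Bnip3-high nuclei, 2.61-fold (2.34 to 2.91) in Egln3-high nuclei and 3.07-fold (2.54 to 3.68) in the 114 Ak4-high nuclei. Pfkp was 2.17-fold higher in Ugp2-high and in Egln3-high nuclei and 2.29-fold in Bnip3-high nuclei. Over the 90 ordered pairs of members, 40 had an interval above 1, 1 below 1, and 18 reached 2-fold. The share of all genes with an interval above 1 was not counted, so the 40 are not read as a result. All but 1 of the 18 joined a pair of Pfkp, Ugp2, Egln3, Ak4 and Bnip3, and the exception was Ak4 in Ldha-high nuclei (2.21, 1.51 to 3.20). The pairs among the 18 with Ak4 as the gene measured, the exception included, rest on fewer than 200 UMIs of Ak4. Hif1a as the index gave 1 interval above 1, for Pfkp at 1.08 (1.01 to 1.15), and Epas1 gave 0.

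Read against the shares of all genes at 2-fold, and counting only partners with 200 or more UMIs, the members that moved lay around 5 indices of library 1, Pfkp and the 4 that follow. Ak4-high nuclei had 4 of 9 such members at 2-fold against 1.7% of genes. Ugp2-high nuclei had 2 of 8 against 0.0915%, Egln3-high nuclei 2 of 8 against 0.149%, and Bnip3-high nuclei 2 of 8 against 0.183%. Hk2-high nuclei had 0 of 8 against 0.0229%, and Ldha-high and Pdk1-high nuclei 0 of 8 against 0.0114% each. Around Hif1a and Epas1 0 of 8 members and 0% of genes reached 2-fold. Within these nuclei Hk2 was tied to Ugp2 (1.61, 1.49 to 1.74) and Pfkp (1.46, 1.37 to 1.55) and less to Ldha (1.20, 1.10 to 1.31).

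**Figure D4:**
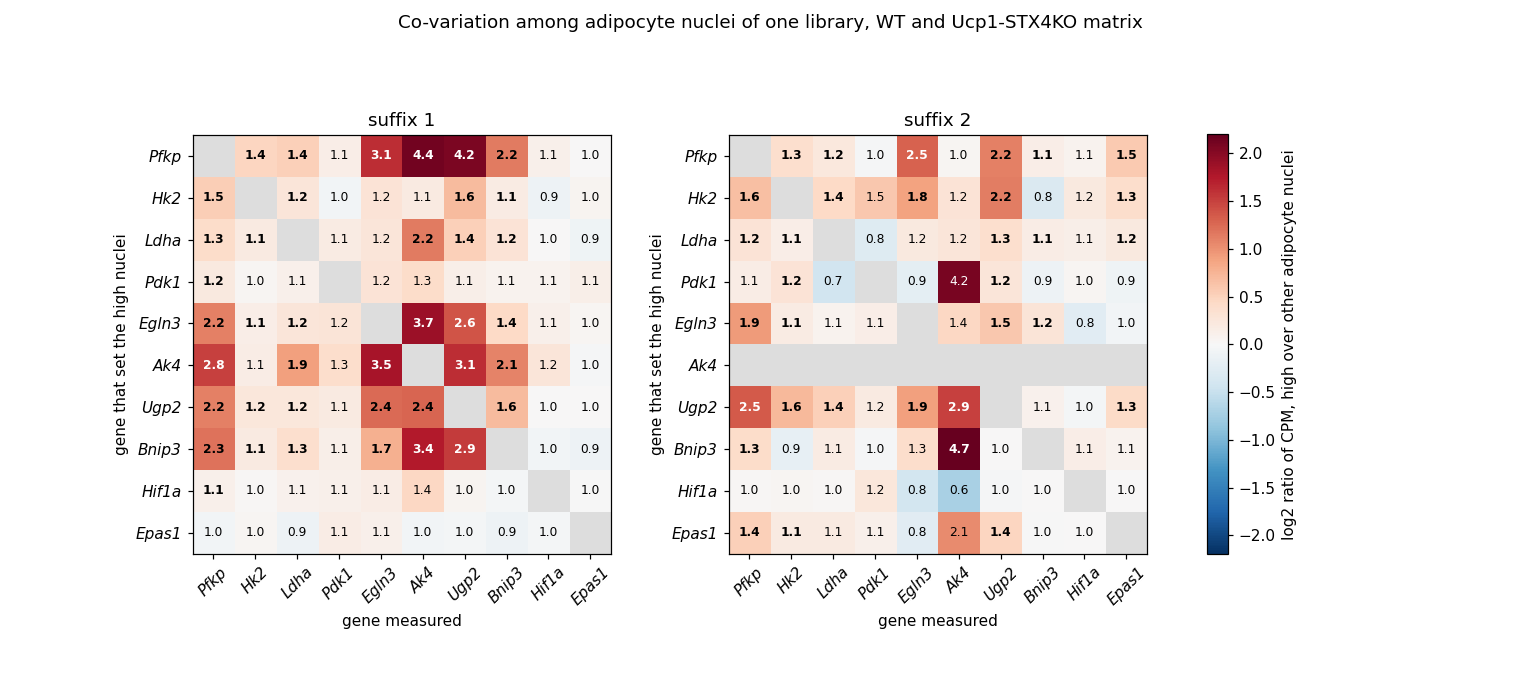
Ratio of CPM in nuclei high in one member (rows) over the remaining adipocyte nuclei, for each other member (columns), in libraries 1 and 2 (suffix 1 and 2) of the WT and Ucp1-STX4KO matrix; color shows the log2 ratio, printed numbers the ratio itself, bold a 95% interval above 1, and grey a pair not computed. In library 1, 18 ordered pairs reached 2-fold with an interval above 1, and in library 2, 6 did, namely Egln3 and Ugp2 in Pfkp-high, Ugp2 in Hk2-high, Pfkp and Ak4 in Ugp2-high and Ak4 in Bnip3-high nuclei. The UMIs that define high differ between the libraries, and ratios for Ak4 as the gene measured rest on few UMIs, fewest in library 2.

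In library 1 the levels climbed step by step with the number of Pfkp UMIs. From 0 through 1, 2 and 3 to 4 or more Pfkp UMIs, Ugp2 stood at 113, 184, 418, 630 and 901 CPM. Bnip3 went through 252, 331, 505, 681 and 833 CPM, and Egln3 through 15.6, 23.7, 42.3, 65.9 and 81.3. Hif1a stayed between 101 and 117 CPM across the same 5 steps. In library 2 Ugp2 went through 802, 1466, 2176, 2619 and 2365 CPM and Bnip3 through 335, 346, 384, 540 and 438, both lower at the last step of 48 nuclei than at the one before, with overlapping intervals. The steps held 6914, 2276, 710, 273 and 203 nuclei in library 1 and 2984, 832, 242, 88 and 48 in library 2.

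**Figure D5:**
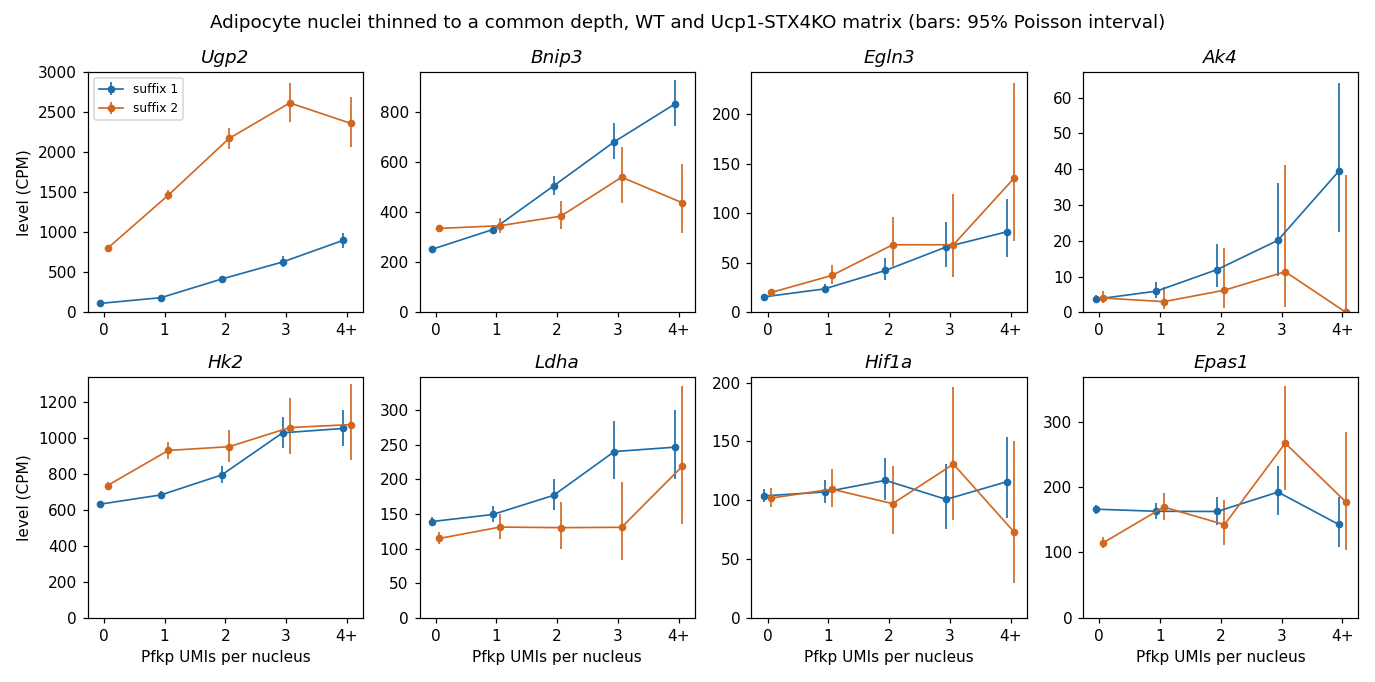
Level of 8 members (y axis, CPM, from 0) in adipocyte nuclei grouped by their number of Pfkp UMIs after thinning to 2000 UMIs (x axis, 0 to 4 or more), in libraries 1 (blue) and 2 (orange) of the WT and Ucp1-STX4KO matrix, with 95% Poisson intervals as bars. In library 1 Ugp2, Egln3 and Bnip3 climbed at every step, Bnip3 from 252 to 833 CPM, and Hif1a stayed between 101 and 117, while in library 2 Ugp2 and Bnip3 were highest at 3 Pfkp UMIs.

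In library 2, the 1210 nuclei with any Pfkp UMI again held more Ugp2 (2.16, 2.07 to 2.25) and Egln3 (2.47, 1.90 to 3.20) than the other 2984. These were 2 of 7 partners past 2-fold, against 0.422% of 5448 genes. Epas1 (1.50, 1.32 to 1.69) and Hk2 (1.29, 1.23 to 1.36) were higher as well. Bnip3 was 1.11 (1.02 to 1.20) and Ak4 1.03 (0.439 to 2.23). Ugp2-high nuclei, those with 7 or more UMIs, held more Pfkp (2.54, 2.27 to 2.83), 1 of 7 members at 2-fold where 1.73% of genes reached it. Ak4 was higher in Bnip3-high nuclei (4.65, 2.22 to 9.66) and in Ugp2-high nuclei (2.85, 1.17 to 6.32), from 34 UMIs in all. Hk2-high nuclei of library 2 held 2.18-fold (2.07 to 2.29) more Ugp2 and less Bnip3 (0.802, 0.708 to 0.905), where 0.349% of genes reached 2-fold. Egln3-high nuclei had 0 of 7 members at 2-fold against 0.294% of genes, Bnip3-high nuclei 0 of 7 against 0.0184%, Epas1-high nuclei 0 of 7 against 0.0918%, and Pdk1-high nuclei 0 of 8 against 2.5%.

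Set side by side with the same definition in both libraries, at least 1 UMI of the index gene against none, several ratios differed between the libraries, with those of Bnip3 to Pfkp and Ugp2 among the larger differences. Bnip3 in nuclei with Pfkp was 1.68-fold higher in library 1 and 1.11-fold in library 2, and the first ratio was 1.52 times (1.38 to 1.66) the second. Ugp2 in nuclei with Bnip3 was 1.98-fold in library 1 and 0.914-fold in library 2, a ratio of 2.17 (2.01 to 2.34) between them. Ugp2 in nuclei with Egln3 was 2.61-fold in library 1 and 1.50-fold in library 2, a ratio of 1.74 (1.52 to 2.00), and Ugp2 in nuclei with Pfkp gave a ratio of 1.27 (1.18 to 1.38). Hk2 in nuclei with Ugp2 was higher in library 2, 1.59-fold against 1.19-fold, with a ratio of 0.744 (0.699 to 0.793). Epas1 in nuclei with Pfkp went the same way, 0.987 against 1.50, with a ratio of 0.660 (0.573 to 0.760). In nuclei with Pfkp, Egln3 (0.889, 0.650 to 1.22), Ldha (1.03, 0.885 to 1.20) and Hif1a (1.0009, 0.844 to 1.19) gave intervals that include 1, as did Ldha (1.10, 0.955 to 1.27) and Egln3 (1.15, 0.839 to 1.57) in nuclei with Bnip3, so that no difference between libraries was detectable for them.

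Other features of the nuclei moved with some of the members. Pfkp-high and other nuclei of library 1 had like levels of the adipocyte markers (ratio 1.02), Ucp1 (1.04), Adipoq (0.940) and the stress response genes (1.15), and median depths before thinning of 6569.5 and 6164.5 UMIs. Ak4-high nuclei of library 1 held more stress response UMIs (1.55) and endothelial marker UMIs (3.01, 52.6 against 17.5 CPM) and less Adipoq (0.714), and Egln3-high nuclei more endothelial marker UMIs (1.91, 32.9 against 17.3 CPM). In library 2 the Pfkp-high nuclei held more Ucp1 (1.69) and stress response UMIs (1.52) and less Adipoq (0.580). Ugp2-high nuclei there differed further, with Ucp1 at 2.06, stress response genes at 2.12 and Adipoq at 0.352. Bnip3-high nuclei of library 2 did not show this (Ucp1 0.995, Adipoq 0.982). The part of these features in the ratios of either library was not tested.

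Around Pfkp, the genes that moved most were not glycolytic enzymes. In library 1 they were Depp1 (5.43, 4.25 to 6.92), Chst8 (4.66), Eva1c (4.37), Ugp2 itself and the AP-1 factor gene Fosl2 (3.33). Depp1, a gene regulated by FOXO factors, was among the 5 leading genes for 7 of the 10 indices of library 1. Of the hypoxia-induced genes 4 of 12 reached 2-fold in Pfkp-high nuclei, where 0.412% of all genes did, with a list median of 1.57 against 0.981 over all genes. They were the collagen prolyl hydroxylases P4ha2 (2.51, 1.96 to 3.19) and P4ha1 (2.13), the histone demethylase Kdm3a (2.28) and Mxi1 (2.15), of which only P4ha2 was set by the naming rule and the other 3 were named after their values were seen. Fam162a was lowest at 1.003. Of the other glycolytic enzymes 0 of 17 reached 2-fold, with a median of 1.10, from Gpi1 (1.68) to Eno3 (0.664). Glycogen genes gave 0 of 14, led by the branching enzyme Gbe1 (1.60), and of the HIF system Egln1 was highest at 1.68. The lists, too, were written with earlier results of these data known, so the list counts are descriptive.

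In library 2, Pfkp-high nuclei were led by Kng2 (2.55), Perm1, Egln3, Gmpr and Mapt. Of the glycolytic enzymes 2 of 13 reached 2-fold, Hk1 (2.22) and, named after its value was seen, Pkm (2.10), with a median of 1.41, and of the hypoxia-induced genes 1 of 9, Bhlhe40 (2.09), with a median of 1.31, where 0.422% of all genes reached 2-fold and their median was 0.997. Ugp2-high nuclei were led by Impa2 and then by the stress response genes Atf3 and Jun, and 1.73% of all genes reached 2-fold there. Of 5316 genes measured in both libraries, 17 reached 2-fold with Pfkp in library 1 and 21 in library 2. The 3 in common, 17.6% of the former and 14.3% of the latter, were Ugp2, Egln3 and the fatty acid receptor gene Ffar4.

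As a description over nuclei that share a library and a depth of 2000 UMIs, Pearson correlations were mostly weak. The median over 45 pairs was 0.0126 in library 1 and 0.0156 in library 2, and the highest pairs follow. In library 1 Pfkp and Ugp2 gave 0.303, Pfkp and Bnip3 0.241 and Ugp2 and Bnip3 0.210, and 7 of 45 pairs exceeded 0.1. In library 2 Pfkp and Ugp2 gave 0.266 and Hk2 and Ugp2 0.241, and 4 of 45 pairs exceeded 0.1. Rank correlations (Spearman) of the same pairs were 0.195, 0.162 and 0.129 in library 1 and 0.257 and 0.216 in library 2. The aging libraries, thinned to 1000 UMIs, held 603, 583 and 227 adipocyte nuclei. Pfkp and Ugp2 gave Pearson correlations of 0.0220, 0.0993 and 0.0946 there. Only 54, 45 and 9 ordered pairs had enough high nuclei to be computed. Pfkp was an index in aging library 1 alone, and Egln3 and Ak4 in no aging library. Of the pairs computed, 3, 1 and 0 reached 2-fold with an interval above 1. All of the pairs at 2-fold rest on partners under 200 UMIs. Of all genes with 200 UMIs 0% reached 2-fold. An index had at most 1 partner with 200 UMIs, so the 0 such partners at 2-fold allow no reading. The pair Ugp2 in Bnip3-high nuclei was among the pairs at 2-fold in aging library 1 (2.12, 1.17 to 3.80), from 22 UMIs in high and 30 in other nuclei. It was so in aging library 2 as well (2.20, 1.21 to 3.80), from 17 and 66. The other 2 pairs of aging library 1 were Pdk1 in Ugp2-high nuclei (3.37, 1.22 to 8.10, with 7 UMIs in high nuclei) and Pdk1 in Bnip3-high nuclei (2.53, 1.14 to 5.53, with 14). With the stricter gate, and likewise with thinning to 500 UMIs, the 3 and 1 pairs became 0.

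Across the 26 groups of one type in one library, the genes whose pattern was most like that of a member were found by Pearson correlation of log2(CPM + 1) over 14562 genes. The groups share libraries, and the values are descriptive. Hk2 was most like Ogdh (0.947) and Cluh (0.942), and Bnip3 most like Gbe1 (0.937) and Apmap (0.929). Epas1 was most like Tinagl1 (0.925) and Gpr182 (0.894), and Ugp2 most like Thpo (0.907) and Elmod2 (0.903). Ldha was most like Lipe (0.854), itself a marker of the adipocyte gate, and Fabp3 (0.829). Egln3 was most like Myl1 (0.820) and Dpf3 (0.804), and Pfkp most like Acer2 (0.805) and Ap1g1 (0.799). The closest for Ak4, Pdk1 and Hif1a were Plppr1 (0.794), Lncbate6 (0.763) and Herc1 (0.736).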

How the data were processed

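Nuclei were sorted from interscapular brown adipose tissue and profiled with the 10x Genomics 3′ v3.1 kit. The authors aligned the reads to mm10 and counted UMIs with Cell Ranger (version 6.1.2) with a forced number of barcodes, and deposited raw UMI counts per gene and barcode, pooled into 2 matrices. Seurat (version 4.1.0) normalization and integration followed and did not enter these counts. Forcing the barcode number can admit droplets that hold only free RNA. The counts were used as deposited.

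Barcodes with at least 200 UMIs and 100 genes were kept. The upper limits of 2000 UMIs and 3000 genes that the authors also state would leave 0 nuclei of library 1 of the WT and Ucp1-STX4KO matrix and were tried as an alternative. A nucleus was gated when the UMIs of a marker list reached 60 (adipocyte) or 20 (other lists) per 10000 UMIs with 3 different markers, and the next list scored at most 0.5 of the first. Nuclei positive for 2 lists were called mixed and left out, which served as the treatment of doublets, and no doublet caller was run. Levels carry exact Poisson intervals and ratios of 2 levels carry exact conditional binomial intervals. The ratio between libraries of 2 such ratios carries a log-normal interval. The shares of all genes past 2-fold cover genes with at least 200 UMIs. Depth per library was 14486189 to 76195924 UMIs. No test across samples was possible with 1 library per condition.

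The members and lists were chosen with earlier results of these data known. Besides the members, the text names the highest and lowest gene of a list, the 2 genes most like a member, the 5 leading genes of an index, and the markers. Genes outside this rule are named as such or are Ucp1, Stx4a and those shared by both libraries, which were chosen after their values were seen. Promoter stretches are from RefSeq (GRCm38.p6). Alternatives were a stricter gate (1.5 times the score, next list at most 0.333 of it), the stated filter, a denominator without mitochondrial genes and the 50 most abundant genes, leaving out the 5% of nuclei with most UMIs, each library alone, other depths and another definition of high nuclei. Python 3.11.15, numpy 2.4.6, scipy 1.17.1, pandas 2.3.3 and matplotlib 3.10.9 were used, and the scripts were tested on simulated data. A result on one further gene list is not reported here.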

Additional observations from a re-analysis of the deposited data

How the results depend on the processing

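Of 1291 single values compared with an alternative, 1068 stayed the same, 215 moved without reversing and 8 reversed. Under the full stated filter 32 stayed the same, 35 moved and 4 reversed. With thinning to the lower depth 85 stayed the same, 54 moved and 1 reversed. The 8 values that reversed are listed here. Under the full stated filter, in library 2 of the WT and Ucp1-STX4KO matrix, the ratio of adipocyte to other gated nuclei became 0.922 for Ak4 and 0.666 for Epas1, and in aging adipocyte nuclei Hk2 became 0.865 (library 2 over 1) and 0.739 (library 3 over 1). Against the pooled matrix, Pdk1 reversed in library 2 alone (0.411), and Ak4 (0.710) and Epas1 (0.977) in library 1 alone. Epas1 in Ldha-high nuclei of library 2 became 0.921 at 1000 UMIs. The causes were not tested, beyond the fewer nuclei of the stated filter, which left none of library 1.

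Of 79 counts compared in the same way, 64 stayed the same and 15 moved. Members highest in adipocyte nuclei became 4 (from 2) in library 2 and 4 (from 7) in aging library 1 under the stated filter. Members at least 2-fold higher in adipocyte nuclei of library 2, without a minimum of UMIs, became 4 (from 2) both with the other denominator and without the 5% of nuclei with most UMIs. Members past 2-fold between aging libraries 2 and 1 became 2 (from 1) with the stricter gate, the stated filter and the other denominator, and between libraries 3 and 1 became 2 (from 4) without the 5% of nuclei with most UMIs. Ordered pairs at 2-fold with an interval above 1 became 11 (from 18) in library 1 at 1000 UMIs, 3 (from 6) in library 2 with any UMI of the index gene as high, 0 (from 3) in aging library 1 with the stricter gate and at 500 UMIs, and in aging library 2 0 (from 1) with the stricter gate and at 500 UMIs and 2 without the 5% of nuclei with most UMIs.

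Thinning to 4000 UMIs was added after seeing the data, and gave Ugp2 in Pfkp-high nuclei of library 1 at 4.51. It was 2.36 at 1000 UMIs and 4.21 at 2000. The size of these ratios moved with depth, and aging libraries of 227 to 652 adipocyte nuclei could show only large ones. No paired analysis was possible because each group has 1 library and no result comes from a test.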
